A study of Homo sapiens with 5 samples.

Results

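A set of 4 genes of glutathione metabolism was examined in NRF2 ChIP-seq data: GCLC, GCLM, SLC7A11 and GSR. NRF2 is a transcription factor that is released from KEAP1-dependent degradation by electrophiles, pairs with a small MAF protein and binds the antioxidant response element (ARE) of its target genes. Glutathione is the main thiol buffer of the cell. Its synthesis is limited by glutamate-cysteine ligase, made of a catalytic subunit (GCLC) and a modifier subunit (GCLM), and by the supply of cysteine, which enters the cell as cystine through the exchanger whose transport subunit is SLC7A11. GSR encodes glutathione reductase, which uses NADPH to return oxidised glutathione to its reduced form. All 4 are known as NRF2 target genes in airway epithelium and other tissues.

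The members were chosen by name, with earlier results of these data known, and each was given 1 window of the hg19 genome build. The windows were chr6:53350000-53425000 for GCLC, chr1:94340000-94390000 for GCLM, chr4:139075000-139175000 for SLC7A11 and chr8:30525000-30600000 for GSR. A peak belonged to a gene when its summit, the position with most tags, lay in the window. The 4 windows held 4 of the 1925 peaks of the SFN list and 0 of the 2199 peaks of the vehicle list.

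The cells were BEAS-2B, an immortalised, established human bronchial epithelial cell line. They received 10 µM D,L-sulforaphane (SFN), an isothiocyanate that activates NRF2, or 0.1% DMSO as the vehicle, in each case for 5 h. NRF2-bound DNA was precipitated from 2 SFN and 2 vehicle samples, and IgG was used on 1 further vehicle sample. Each treatment is represented by 1 peak list, so there is no value per sample, no spread between replicates and no test between the treatments. The SFN list was called on 7448599 kept tags and the vehicle list on 1459665, a ratio of 5.10, with 1 tag kept per position. The libraries were thus unequal in usable depth, and an uncalled peak in the vehicle list is not a measured absence of binding.

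The core of the ARE, TGACNNNGC, was looked for on both strands in promoter sequences from RefSeq (GRCh38.p14), of 300 bases each, with 250 before and 50 after the annotated start. The table held 2 of the 4 members, GCLC and GCLM, and 1 of them, GCLM, had a match. Among all 35116 promoters of this length 13.3% had one, so the count is no result about the members. The 250 bases before the start are shown for both subunits of the ligase because they differ in this respect. They are from the minus strand, at chr6:53545102-53545351 for GCLC and chr1:93909431-93909680 for GCLM in GRCh38.p14, and capitals mark the ARE core, which reads TGACTAAGC on the opposite strand.

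GCLC: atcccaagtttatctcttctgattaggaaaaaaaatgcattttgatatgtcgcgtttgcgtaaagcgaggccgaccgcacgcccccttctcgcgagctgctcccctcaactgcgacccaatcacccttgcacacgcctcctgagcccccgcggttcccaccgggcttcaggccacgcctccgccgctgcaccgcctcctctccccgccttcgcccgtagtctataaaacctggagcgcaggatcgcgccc
GCLM: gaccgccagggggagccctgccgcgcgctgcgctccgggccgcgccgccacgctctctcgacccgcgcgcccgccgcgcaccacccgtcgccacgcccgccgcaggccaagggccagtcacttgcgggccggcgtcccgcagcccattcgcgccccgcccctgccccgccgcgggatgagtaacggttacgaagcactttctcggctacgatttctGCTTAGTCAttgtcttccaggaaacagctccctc

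The match at GCLM covered the bases from -34 to -26, counted from the start with -1 as the base before it. No promoter of the pair held the AP-1 site TGANTCA, a related element that 7.71% of all promoters had. The share of G and C before the start was 72.4% for GCLM and 60.8% for GCLC, against a median of 58.0% over all promoters. A match of letters is not a bound site, and the missing match at GCLC says only that these letters are not in this window. The sequences and the peaks are on different genome builds, so whether a peak covers the matched element was not determined here.

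The first question was where NRF2 peaks were called at the 4 genes. After SFN each gene had 1 peak, and the vehicle list had none in any of the windows. As background, summits of the SFN list fell in 1.60% of all windows of 50 kb tiled along the chromosomes, the width used for GCLM. The share was 2.33% at 75 kb, the width for GCLC and GSR, and 3.09% at 100 kb, the width for SLC7A11. For the vehicle list the shares were 2.26%, 3.30% and 4.37%, so most windows of these sizes held none. The tiles include stretches without genes, whereas the member windows were set around known targets, so the shares describe the density of the lists.

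GCLM, the modifier subunit of the ligase, had the highest of the 4 peaks, at chr1:94374899-94375228 with its summit at 94375029. It had 39 tags at the summit (exact 95% Poisson interval 27.7 to 53.3), a fold of 11.8 over the local control and a −log10 q of 29.0. The pileup, fold, p and q of each peak are the values of the authors' caller. In RefSeq order the protein-coding neighbours of GCLM are DNTTIP2 and ABCA4. By fold this peak ranked 101 of 1925, so 5.25% of the SFN list had this fold or more.

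GCLC, the catalytic subunit, had its peak at chr6:53412970-53413189, with the summit at 53413082. The peak had 24 tags (15.4 to 35.7), a fold of 6.85 and a −log10 q of 11.5, and ranked 433 by fold. The peak of GCLM was 1.62 times as high, but the exact binomial 95% interval of this ratio, 0.953 to 2.82, included 1. The neighbours of GCLC in RefSeq order are ELOVL5 and KLHL31, and the antisense gene GCLC-AS1 overlaps it. ChIP-seq peaks carry no strand, so the peak cannot be given to either gene of such a pair.

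SLC7A11, the cystine transporter, had the lowest and the widest peak, at chr4:139156709-139157094 with the summit at 139156833. It had 12 tags (6.20 to 21.0), a fold of 9.14 and a −log10 q of 10.6. Its fold was second among the 4 genes and ranked 189 in the list, with the control at its lowest value there. The antisense gene SLC7A11-AS1 overlaps SLC7A11, and PCDH18 and NOCT are the neighbouring coding genes.

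GSR, glutathione reductase, had its peak at chr8:30585347-30585547 with the summit at 30585433. It had 31 tags (21.1 to 44.0), a fold of 7.66 and a −log10 q of 16.2, and ranked 324 by fold. Its coding neighbours are GTF2E2 and UBXN8. The summit lay 60.4 kb from the lower and 14.6 kb from the upper edge of the window.

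All 4 summits lay in the upper part of their windows, at 70.1% of the window's length for GCLM, 80.6% for GSR, 81.8% for SLC7A11 and 84.1% for GCLC. The promoter table places GCLC and GCLM on the minus strand, where a gene starts at its upper end. The windows have margins of unequal size, and no hg19 annotation was used here, so the distance of a summit from a transcription start, and its exon or intron, were not determined.

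**Figure D1:**
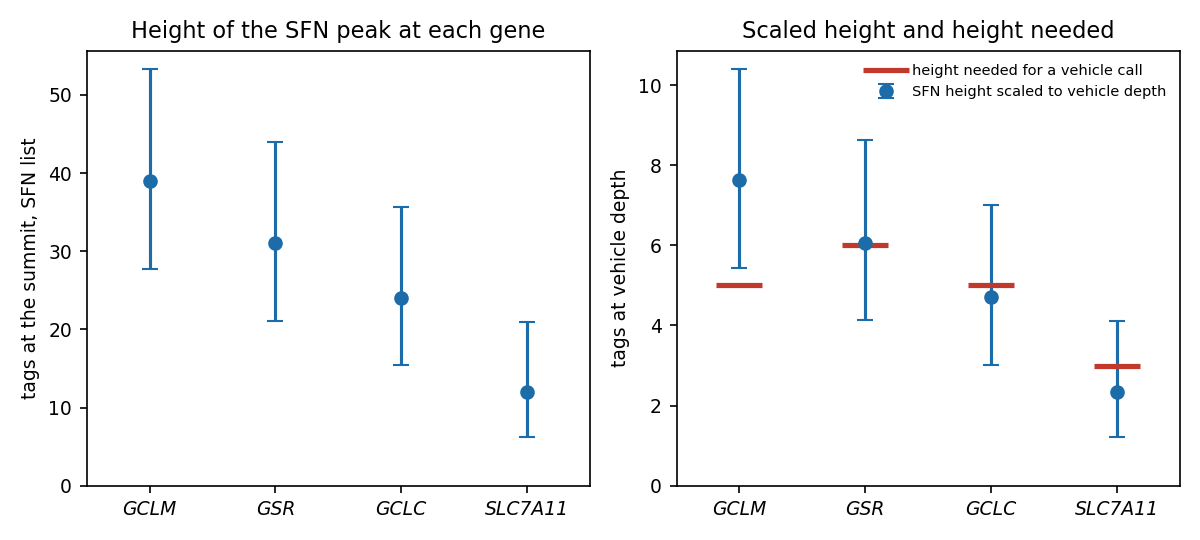
Left, tags at the summit of the SFN peak at each gene, with exact 95% Poisson intervals as bars. Right, the same heights scaled by the ratio of kept tags to the depth of the vehicle list, with their intervals, and as red dashes the height needed there for a call; only the interval of GCLM lies wholly above its dash.

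The order of heights was GCLM, GSR, GCLC and SLC7A11, and no pair of neighbours in this order differed beyond counting error. The ratio of GCLM to GSR was 1.26 (exact binomial 95% interval 0.765 to 2.09), that of GSR to GCLC 1.29 (0.734 to 2.30) and that of GCLC to SLC7A11 2.0 (0.962 to 4.39). Farther apart in the order, GCLM was 3.25 times (1.67 to 6.82) and GSR 2.58 times (1.29 to 5.52) as high as SLC7A11. The 6 pairs were not adjusted for their number, and the intervals cover counting error alone, not the spread between samples. With 1 tag per position and strand a stack could reach 306 tags, far above any of the 4 heights.

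The control differed between the genes. The caller's local control level, computed back from the fold and expressed as a multiple of the genome average, was 5.65 at GCLM, 6.27 at GCLC and 7.53 at GSR. At SLC7A11 it was 1.0, the lowest level the caller uses. The median over the SFN list was 8.16. The series had IgG from vehicle cells alone, so background after SFN was not measured with IgG. The 3 peaks with raised control had the most tags, and the contribution of the raised control to their height was not tested; their folds of 6.85 to 11.8 are over that control.

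The order of the folds depended on how the caller forms them. It adds 1 tag to the height and to the control level, which lowers the fold most where the control is low. Without the added tag the height of SLC7A11 was 28.4 times its control level, that of GCLM 16.4 times, that of GSR 9.75 times and that of GCLC 9.06 times. SLC7A11 then came first among the 4 genes and ranked 99 in the list, and GCLM ranked 431, GSR 787 and GCLC 822. The control level of 1.0 at SLC7A11 is a floor that the caller sets, so a control below it would not show. Ranking by other measures put SLC7A11 lower: by −log10 p the ranks were 140 for GCLM, 427 for GSR, 720 for GCLC and 783 for SLC7A11, and by height 676, 826, 991 and 1373.

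**Figure D2:**
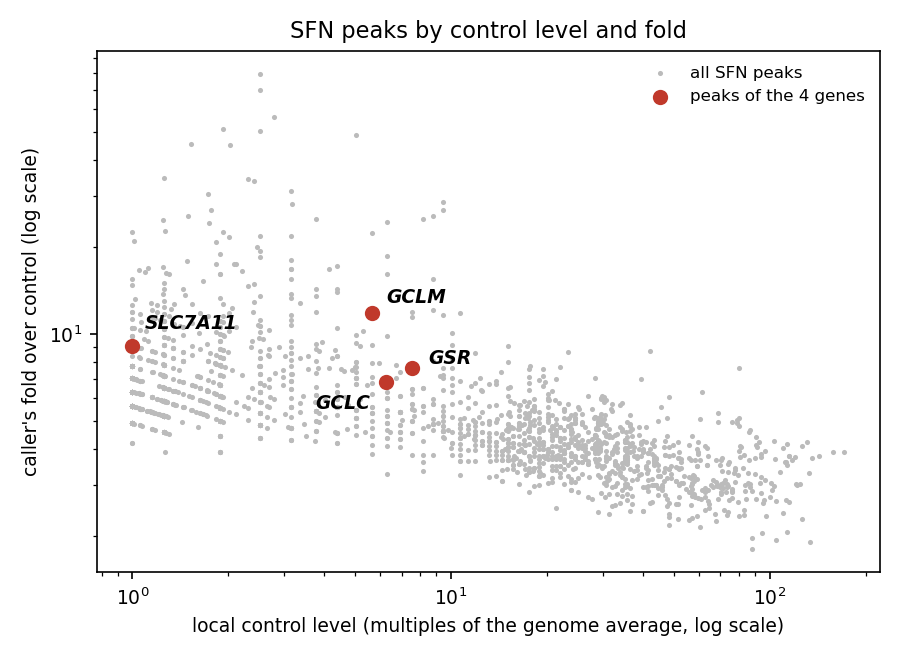
Each point is a peak of the SFN list, by its local control level and the caller's fold over it, both on log axes, with the peaks of the 4 genes in red. SLC7A11 sits at the lowest control level of 1.0, and GCLM, GCLC and GSR between 5.65 and 7.53.

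Each of the 4 peaks had a fold above the median of SFN peaks of like control level. The SFN list had 285 peaks at a control level of 3 to 10, with medians of 20 tags and of 5.74 for the fold. Within these GCLM ranked 31 by fold, GSR 71 and GCLC 97. Under a level of 3 there were 725 peaks, with medians of 9 tags and of 6.33 for the fold, and SLC7A11 ranked 140 among them. The limits of 3 and 10 were taken over from earlier results of these data.

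The peaks differed in shape. That of SLC7A11 was 386 bp wide and reached 124 bp below and 261 bp above its summit, and that of GCLM, 330 bp wide, reached 130 bp below and 199 bp above. The peaks of GCLC (220 bp) and GSR (201 bp) were narrower than the list's median of 234 bp, and GCLC was nearly symmetric, with 112 and 107 bp. In units of the estimated fragment length of 153 bp the widths were 2.52 for SLC7A11, 2.16 for GCLM, 1.44 for GCLC and 1.31 for GSR. Of the 215 SFN peaks with 10 to 14 tags and a control level under 3, SLC7A11 included, 4 were as wide as that of SLC7A11 or wider, and their median was 187 bp; this comparison was chosen after the width had been seen. Whether the wide peak at SLC7A11 holds more than 1 site cannot be read from a peak list with 1 summit.

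**Figure D3:**
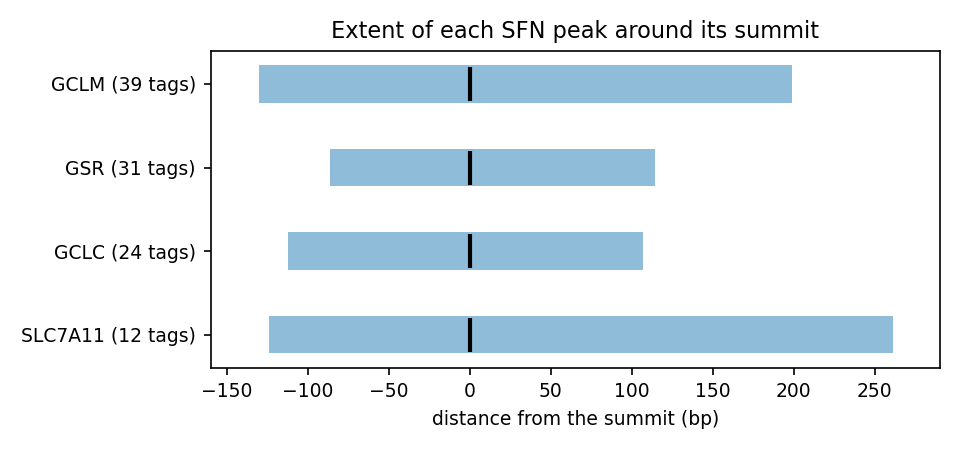
Bars give the extent of each gene's SFN peak in bp from its summit (black mark), with genes ordered by height. The lowest peak, SLC7A11 with 12 tags, is the widest at 386 bp.

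Each of the 4 peaks stood alone. The next SFN summit was 67.6 kb away for GCLC, 247 kb for GCLM, 1390 kb for GSR and 6880 kb for SLC7A11. The neighbour of the GCLC peak, chr6:53480530-53480707, lay 55.7 kb outside the window and had 13 tags and a fold of 5.41, the nearest SFN peak outside any of the 4 windows. In the whole list 899 of 1925 peaks had no other summit within 10 kb.

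The second question was whether the vehicle list had a peak at the same places. None of the 4 SFN peaks overlapped a vehicle peak. Over the whole SFN list 37.9% of peaks overlapped one, at a control level of 3 to 10 it was 23.9%, and under 3 it was 3.72%. At each of the 4 genes the absence of an overlap is thus what most peaks of its control level showed. The 3 peaks at GCLM, GSR and GCLC are too few to tell their share from the 23.9%, and no test was made.

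The vehicle peak nearest to any of the 4 was chr1:94405009-94405162, with 4 tags, a fold of 4.62 and a control level of 1.0. It lay 15.1 kb outside the GCLM window and 30037 bp from the GCLM summit. No SFN peak overlapped it. For the other genes the nearest vehicle summits were farther, at 449 kb for GSR, 1670 kb for GCLC and 2720 kb for SLC7A11, with 4, 5 and 4 tags.

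Depth sets what these absences can show. At equal occupancy and equal efficiency of the precipitation, the 39 tags of GCLM scale to 7.64 tags at the depth of the vehicle list (5.43 to 10.4). The lowest height at which the caller's Poisson p would reach the weakest p of the vehicle list at this control level was 5 tags, so the whole interval lay above it. A vehicle count drawn around 7.64 tags would still reach 5 in only 87.8% of cases, or in 63.2% at the lower limit of the interval. The peak of GSR scaled to 6.07 tags (4.13 to 8.62) with 6 needed, which a Poisson count would reach in 56.6% of cases. That of GCLC scaled to 4.70 (3.01 to 7.0) with 5 needed, reached in 50.6%. The peak of SLC7A11 scaled to 2.35 tags (1.22 to 4.11) with 3 needed, reached in 41.8%. Under this scaling a vehicle peak of equal occupancy would usually have reached the needed height at GCLM. At GSR, GCLC and SLC7A11 it would have done so in 41.8% to 56.6% of cases. At the lower limits of their intervals the shares were 23.5% for GSR, 18.7% for GCLC and 12.4% for SLC7A11. The missing calls at these genes thus show little about a difference from SFN.

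The shortest vehicle peak was 154 bp long, the fragment length estimated for that list, so reaching the needed height at the summit alone may not have made a call. Each scaled height also starts from the highest point of a peak that was called in the SFN list. The intervals do not allow for this choice, so the scaled heights and the shares of cases may be too high. Lower occupancy under vehicle and a lower recovery of bound DNA in that library cannot be told apart from 1 list per treatment.

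Scaling by kept tags did not describe all peaks of the lists. Beside GCLC, 3 SFN peaks had the same 24 tags and the same fold of 6.85, and all 3 overlapped a vehicle peak, of 12 to 14 tags. Of these, chr2:89857164-89857384 (13 tags in the vehicle list) and chrY:13446427-13446637 (14 tags) stand next to GCLC in the ranking by fold. Beside GSR, the peak chr12:132072942-132073275 likewise matched it in both values (31 tags, 7.66) and overlapped a vehicle peak of 11 tags. At these vehicle peaks the control level was 9.97 on chr2, 6.23 on chrY and 5.61 on chr12. In the SFN list it was 6.27, 6.27 and 7.53, so chr2 and chr12 differed in control between the lists. Beside SLC7A11, 2 SFN peaks had its 12 tags and fold of 9.14, and 0 of the 2 overlapped a vehicle peak. No other SFN peak had the values of GCLM. The vehicle heights at the matches of GCLC and GSR exceed the scaled 4.70 and 6.07 tags, so the scaled heights and the shares of cases above hold only where height follows kept tags. Of 80 SFN peaks with 24 tags or more at a control level of 3 to 10, 30 (37.5%) overlapped a vehicle peak. GCLC, GSR and GCLM were among the other 50, a grouping made after their heights were seen.

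The peaks next to the remaining genes in fold were of other kinds. Above GCLM stood chr10:81080954-81081219, with 19 tags and no overlapping vehicle peak, and below it chr1:9902-10512, with 64 tags and a vehicle peak of 25 tags. Next to SLC7A11 stood chr2:225956181-225956444, with the same 12 tags, and chr5:134260749-134261418, with 66 tags at a control level of 15.1; no vehicle peak overlapped either. Below GSR stood chr7:5602312-5602510, with 20 tags and no overlapping vehicle peak. Peaks at nearly the same fold thus ranged from 12 to 66 tags, so the fold alone does not describe the height of a peak. The genes at these peaks were not determined here.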

How the data were processed

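NRF2 ChIP-seq was done in BEAS-2B cells on 2 SFN and 2 vehicle samples, with 1 IgG sample, grouped by their labels (the labels do not tell whether cultures were separate). The submitters' processing notes name CASAVA 1.4, BWA, MACS2 and hg19. Per the file headers, each deposited list was called with MACS 2.1.0.20140616 against 1 control named for input and IgG, at a q cutoff of 0.05; no header or label tells whether samples were pooled. Of 23090154 SFN tags 32.3% were kept and of 11377334 vehicle tags 12.8%, so the vehicle list rests on fewer usable tags. The signal (tag pileup), the fold (a ratio over control) and the −log10 p and q values are as deposited by the authors.

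From these were computed, with Python 3.11.15, pandas 2.3.3 and scipy 1.17.1, the local control level ((pileup + 1) / fold − 1, over the genome average of 0.422 tags for SFN and 0.0833 for vehicle), overlaps of at least 1 bp, ranks, scaled heights and exact 95% intervals. A Poisson tail at this level gave the deposited −log10 p to within 0.001 for all 1925 SFN and 2199 vehicle peaks. The code for overlaps and control levels was also run on made-up peaks whose fold was built with the same formula. Such a run checks the code and not these data. Members and lists were chosen with earlier results of these data known. The rule for named features was the 4 genes, every peak in their windows and the peak next above and below each in fold. A list of further glutathione genes, such as GSS and SLC3A2, was planned and not counted, since no hg19 annotation was used here.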

Additional observations from a re-analysis of the deposited data

How the results depend on the processing

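Of 37 alternatives 25 left a value within 1.5 times. The 4 SFN peaks, at 4 genes, held under every setting of window placement, q and widening that was run. The 0 overlaps with vehicle peaks also held, but no setting run could have changed them. A stricter overlap or q can only lower a count. The nearest vehicle summit was 30037 bp away, beyond the limits of 500 and 1000 bp. Nor could a stricter q or control level raise the 0 vehicle peaks in the windows. These settings are counted among the 25 and show nothing about stability. At a control level under 3 only SLC7A11 was left, so 4 peaks and 4 genes became 1 and 1, since the control level at GCLC, GCLM and GSR is above that limit. With windows widened by 50 kb the vehicle list had 1 peak, at 1 gene, in place of 0: the peak beyond the GCLM window. Ranked by pileup, the places moved to 676 for GCLM, 826 for GSR, 991 for GCLC and 1373 for SLC7A11, and ranked by −log10 p to 720 for GCLC and 783 for SLC7A11. On the given strand alone 0 of 2 promoters had the ARE core, since the match at GCLM is on the other strand. The heights needed for a vehicle call, 3 to 6 tags, were the same as the lowest vehicle peak within 1.2 times the control level. Both come from the p values of the same vehicle list, so this match was nearly fixed beforehand and is no independent check. This alternative was chosen after seeing the data. The fold without the added tag was also chosen after seeing the data. It moved the fold of SLC7A11 from 9.14 to 28.4 and those of the other 3 by less than 1.5 times. The ranks by fold moved more, from 101 to 431 for GCLM, 324 to 787 for GSR, 433 to 822 for GCLC and 189 to 99 for SLC7A11. These ranks are not among the 37 alternatives. No paired analysis was possible because the lists hold nothing by replicate number, and for the same reason no replicate could be left out.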
